A study of Mus musculus with 4 samples.

Results

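The resident-like macrophages of an isogeneic mouse heart graft were 686 cells with transcripts of Folr2, Lyve1 or Cbr2, out of 11386 cells kept from that graft and 30895 kept from all 4 libraries. A kept cell barcode had at least 500 unique molecular identifiers (UMIs, each standing for 1 captured transcript), at least 300 genes and at most 20% of UMIs from mitochondrial genes. A macrophage had at least 3 UMIs of Csf1r, Fcgr1 and Cd68 in sum, at least 10 of C1qa, C1qb and C1qc, at most 1 of the Cd3 chains and none of Flt3. A member was a macrophage with at most 1 UMI of the division genes Mki67 and Top2a and a sum of at least 2 UMIs over Folr2, Lyve1 and Cbr2. The isograft held 2244 macrophages, of which 337 were above the division limit, and 1907 were not. Members were compared with the 829 of those 1907 cells that had a sum of 0, and the 392 cells with a sum of 1 were left between the classes.

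All 4 libraries were single-cell RNA sequencing (10x Genomics Chromium, 3' chemistry, kit v3.1) of enzymatically digested transplanted mouse hearts at day 5 after transplantation. Replicates 1, 2 and 3 of the allogeneic group came from grafts between genetically different mice, and the isogeneic group, also called syngeneic by the submitters, was 1 library, labelled replicate 2. The labels give no strain, sex, age or cell sort, no treatment aimed at VISTA (the checkpoint protein encoded by Vsir), and no statement that replicates were separate animals, so a test across libraries measures only the spread between these libraries, which may be technical.

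Macrophages seeded before or soon after birth persist in the mouse heart, and a well-known resident population is marked by the folate receptor Folr2, the hyaluronan receptor Lyve1 and the phosphatidylserine receptor Timd4. These cells carry many scavenger receptors, take up dying cells and debris, and commonly show little of the major histocompatibility complex (MHC) class II proteins and of the monocyte receptor Ccr2. Cbr2 is a carbonyl reductase often used as a further marker, and Mrc1 (CD206, the mannose receptor) is shared with other tissue macrophages.

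Members were chosen by their measured UMI counts of Folr2, Lyve1 and Cbr2, and Folr2 carried most of that choice. It had a UMI in 91.8% of the 686 members, Cbr2 in 62.5%, and both in 54.5%. Lyve1 had a UMI in only 7.43% of members (51 cells), and all 3 transcripts were found together in 5.25%. Of the UMIs that chose the cells, 65.0% were Folr2, 30.8% Cbr2 and 4.25% Lyve1. Timd4 was found in 9 members (1.31%), so the name resident-like rests on Folr2 and Cbr2 here and not on Lyve1 or Timd4. Mrc1, which took no part in the choice, had a UMI in 80.2% of members, 53.2% of the sum-0 macrophages and 10.4% of the isograft cells that were not macrophages. In those other cells the choosing transcripts had a UMI in 4.41% (Folr2), 3.01% (Cbr2) and 1.32% (Lyve1), at a median depth of 6272 UMIs against 6946.5 in members. The 3 choosing genes lie at chr7:101839988-101857194 (Folr2), chr7:110850607-110863239 (Lyve1) and chr11:120729489-120732114 (Cbr2) in mm10, all on the minus strand and protein-coding.

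The sum over the 3 transcripts had no gap at the limit. In the isograft, 392 cells had a sum of 1, 219 a sum of 2, 126 a sum of 3, 193 a sum of 4 to 6 and 148 a sum of 7 or more. Cells just outside the limit (sum of 1) held Mrc1 at 239 CPM (counts of a gene per 1000000 UMIs of the class) and F13a1 at 148 CPM, and cells just inside (sum of 2) held them at 289 and 188 CPM. The limit therefore split a series of sums with no gap, as the plot of sums by library shows. Whether the cells themselves form a graded series was not tested.

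**Figure D1:**
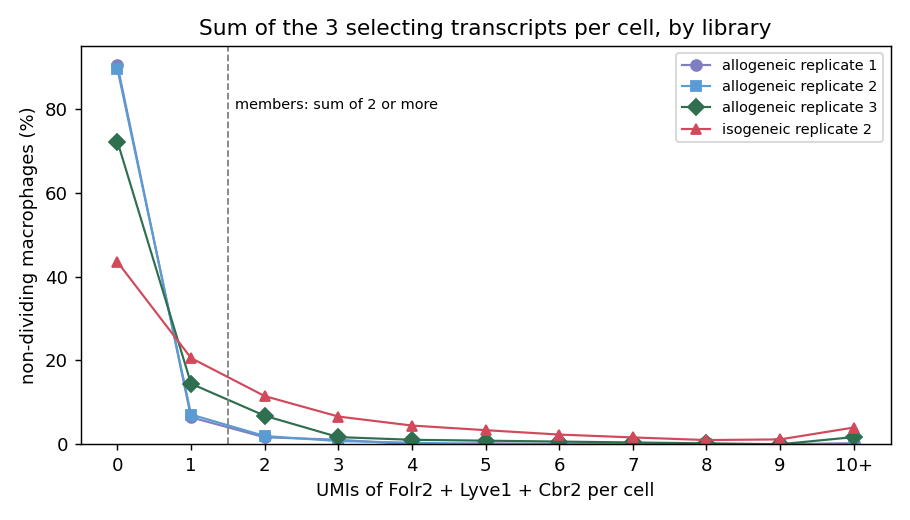
Percentage of non-dividing macrophages (vertical axis) with each sum of Folr2, Lyve1 and Cbr2 UMIs per cell (horizontal axis), 1 line per library; the dashed line is the lower limit for members. In the isograft 43.5% of cells had a sum of 0, and the line falls with no second peak before the pooled last point (10 or more).

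The members stood out in number in the isograft. They made up 36.0% of its non-dividing macrophages (686 of 1907, exact Clopper-Pearson 95% interval 33.8% to 38.2%), and cells meeting the same definition made up 3.21%, 3.46% and 13.4% in allogeneic replicates 1, 2 and 3 (27 of 842, 46 of 1328 and 63 of 471). The allograft mean was 6.68% ± 5.80 (SD, n = 3), so the isograft was 29.3 percentage points higher and lay above each allograft. The exact two-sided permutation test over libraries gave p = 0.25, the smallest that 3 libraries against 1 allow. Of all kept cells, the same class was 6.02% in the isograft and 0.542%, 0.560% and 0.998% in the allografts. Allograft cells were deeper (median 14738, 11467.5 and 12595 UMIs in the class), and with every cell thinned to 3000 UMIs the shares were 25.05% and 2.99% ± 3.67 (SD, n = 3). Intervals here and below cover counting error only, since cells of 1 library are not replicates.

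Of the other cell types a droplet could hold, fibroblasts left the most transcripts in members. The 10 fibroblast markers summed to 7684 CPM in members, 10092 CPM in sum-0 macrophages and 26278 CPM in isograft cells that were not macrophages. Col1a1 had a UMI in 49.3% of members and of sum-0 macrophages alike and in 72.0% of other cells. The 8 mural markers summed to 1118 CPM in members and 868 in the sum-0 class, the 6 lymphatic endothelial markers to 352 and 195, and the 12 T and NK markers to 6.19 and 9.79, with Cd8a and Cd8b1 at 0 in both. In all, 286 of 686 members and 339 of 829 sum-0 cells carried more than 2 UMIs of a fibroblast, endothelial or T and NK set. The 1037 highest doublet scores among the library's 11386 kept cells included 96 members. Removing those cells left 590 of 686 members and 680 of 829 sum-0 cells. Libraries shared between 7 and 30 barcodes per pair, and 1 of those barcodes was a macrophage with a sum of at least 2.

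Against the sum-0 macrophages of the same graft, the members held more transcripts of the receptors Mrc1 and Stab1, the chemokine Ccl8, the clotting factor subunit F13a1 and the enzymes Ltc4s and Npl, and fewer of the MHC class II genes H2-Aa, H2-Ab1, H2-Eb1 and Cd74, of Il1b and of Ccr2. Among 2889 genes with at least 50 CPM in either class, 11 (0.381%) were at least 2-fold higher in members and 12 (0.415%) at least 2-fold lower, and the median log2 ratio was -0.02. This contrast comes from 1 library and from the cells the rule chose, so its values are a description with no test. The genes above 2-fold were C4b, Ccl21a, Ccl8, Cela1, F13a1, Ltc4s, Mrc1, Myl9, Npl, Nxpe5 and Stab1, and those below were Ccr2, Cd74, Clec4e, H2-Aa, H2-Ea, H2-Eb1, H2-Ab1, Hbb-bs, Il1b, Pdgfra, Saa3 and Slpi.

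Of the receptors, Mrc1 and Stab1 passed 2-fold. Mrc1 was at 342 CPM in members (exact Poisson 95% interval 327 to 356) and 168 CPM in the sum-0 class (158 to 179), a log2 ratio of 1.02. Stab1, a scavenger receptor that clears matrix fragments and dying cells, was at 295 and 136 CPM (log2 ratio 1.12). Dab2, an endocytic adaptor, and Fcgrt, the neonatal Fc receptor, differed less, with log2 ratios of 0.50 and 0.61. Of 12 scavenger and endocytic genes at 50 CPM, 10 lay above 0 and 2 passed 2-fold, with a median of 0.37. Gas6, which bridges dying cells to their receptors, was at 229 and 123 CPM, just under 2-fold, while the 12 efferocytosis genes had a median of 0.06.

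Secreted proteins and enzymes had the widest ratios. F13a1, a subunit of the clotting factor that cross-links fibrin and a common resident macrophage marker, was at 265 CPM in members and 79.5 CPM in the sum-0 class (log2 ratio 1.74, interval 1.59 to 1.89). Ltc4s, which makes the lipid mediator leukotriene C4, was at 79.6 and 22.8 CPM, and it had a UMI in 32.9% of members against 10.9% of sum-0 cells and 6.09% of other cells. Npl, which breaks down sialic acid, was at 83.5 and 28.7 CPM, and Cela1, an elastase, at 70.2 and 24.8 CPM. Among the chemokines, Ccl8, a ligand that draws monocytes and T cells, was at 2190 and 809 CPM (log2 ratio 1.44), and Pf4 was at 1352 and 706 CPM (0.94). The chemokine group as a whole was split, with 9 of 16 genes above 0 and a median of 0.05. Ccl2, the main ligand of Ccr2, was at 2094 and 2158 CPM, and the neutrophil attractant Cxcl2 was at 2965 and 4018 CPM.

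These ratios remained at equal depth per cell, with the classes still those set at full depth. With the definition applied again to the thinned counts, 25.05% of the isograft's non-dividing macrophages were members, against 36.0% at full depth. The ratios were not computed for classes set that way. With every cell thinned to 3000 UMIs (644 members and 674 sum-0 cells kept, 42 and 155 shallower cells left out), F13a1 had a UMI in 46.3% of members and 18.7% of sum-0 cells, Mrc1 in 56.8% and 37.4%, Stab1 in 57.3% and 33.1%, and Ccl8 in 62.3% and 33.7%.

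MHC class II genes were the lowest in members. H2-Aa, a class II chain, was at 48.4 CPM in members and 217 CPM in the sum-0 class (log2 ratio -2.17, interval -2.35 to -1.98). H2-Eb1 was at 57.0 and 213 CPM, H2-Ab1 at 76.4 and 244 CPM, and Cd74, the invariant chain that escorts class II, at 297 and 1077 CPM. H2-Aa had a UMI in 8.16% of members, 17.5% of sum-0 cells and 9.12% of other isograft cells, so its share in members was no higher than in cells that were not macrophages. The size depended on the choosing transcripts, since H2-Aa had a log2 ratio of -1.02 when the cells were chosen without Folr2. Cd74, H2-Eb1 and H2-Ab1 then had -0.79, -0.37 and -0.32, under 2-fold. That choice changed both classes: the comparison class grew from 829 to 1347 cells and no longer left out cells with Folr2. Ctss, a protease that processes antigen, and Ifi30 stayed level (log2 ratio 0.12 for each). Class I heavy chains went slightly the other way, with H2-D1 at 2669 and 2100 CPM and H2-K1 at 1086 and 882 CPM.

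Inflammatory transcripts were lower as a group, with all 10 of the measured mediators below 0 and a median of -0.53. Il1b, the cytokine interleukin-1 beta, was at 30.8 CPM in members and 81.2 CPM in the sum-0 class (log2 ratio -1.40). Saa3 was at 19.1 and 54.2 CPM, the receptor Clec4e at 34.3 and 77.0 CPM, and Tnf at 184 and 264 CPM. Ccr2, the receptor by which monocytes enter tissue, was at 25.7 and 54.8 CPM and had a UMI in 11.8% of members and 20.7% of sum-0 cells. The interferon gene Ifnb1 was at 102 and 187 CPM, and Rsad2, an antiviral target of it, at 76.9 and 134 CPM. The 12 genes of monocyte-derived macrophages at 50 CPM had a median of -0.20, with Plac8 at 47.5 and 76.1 CPM and Lyz2 at 14519 and 11975 CPM. Beside these, 18 of the 19 immediate-early and heat shock genes at 50 CPM, which respond to stress and handling, lay below 0 with a median of -0.26, and their part in the inflammatory values was not tested.

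Other programs differed less. Spp1, a matrix protein of lipid-laden macrophages, was at 4934 CPM in members and 3762 CPM in the sum-0 class, Gpnmb at 153 and 167 CPM, and Apoe, the lipid carrier, at 12350 and 12024 CPM. Trem2, a lipid receptor, was at 1486 and 1056 CPM, and 18 of the 20 lipid-associated genes lay above 0 and none passed 2-fold (median 0.29, beside -0.02 over all genes). Heme and iron genes were close as well, with Hmox1 at 675 and 620 CPM and a median of 0.18 over 9 genes. All 19 lysosome genes lay above 0 with a median of 0.26, and the largest was the protease Ctsl at 3485 and 2067 CPM. Its log2 ratio of 0.75 turned to -0.22 when the cells were chosen without Folr2, with the changed comparison class given above. Vsir was at 76.7 CPM in members (interval 70.0 to 83.9) and 87.2 CPM in the sum-0 class (79.9 to 95.1). Of the 23 transcription factor genes, Maf, a factor that promotes the tissue-resident state, had the highest ratio, at 208 and 124 CPM, and the median was -0.14.

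Levels of F13a1, Ltc4s and Ccl8 rose with the sum of the choosing transcripts along the whole series. From a sum of 0 through 1, 2, 3 and 4 to 6 to a sum of 7 or more, F13a1 ran 79.5, 148, 188, 197, 244 and 409 CPM. Over the same bins Ltc4s ran 22.8, 35.5, 37.1, 47.9, 63.3 and 159 CPM, and Ccl8 ran 809, 881, 1270, 1327, 2602 and 3257 CPM. Each of these 3 genes was higher in every bin than in the one before. Vsig4, a complement receptor that takes up bacteria and debris, was at 1.52, 6.59, 4.18, 5.13, 25.3 and 110 CPM, highest in cells with a sum of at least 4. Fcna, a ficolin of the lectin pathway, ran from 5.57 CPM at a sum of 0 to 96.7 CPM at 7 or more. H2-Aa had another shape, with 217 CPM at a sum of 0, 47.7 CPM at 1 and 34.1 to 69.3 CPM in the higher bins. Median depth went from 5297 UMIs at a sum of 0 to 9962 at 7 or more, and its part in these trends was not tested.

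**Figure D2:**
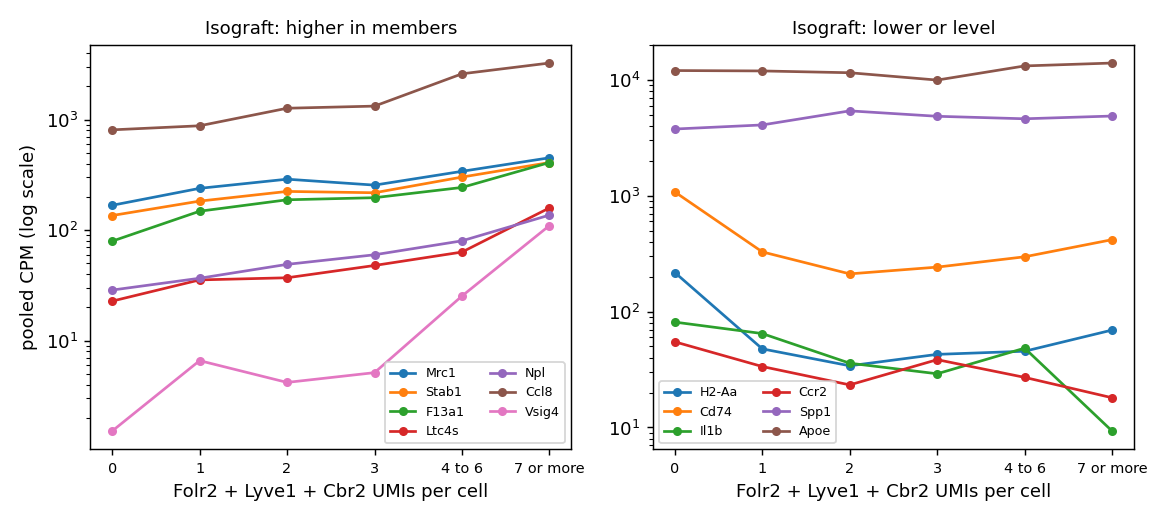
Pooled CPM in the isograft (vertical axes, log scale) by sum of Folr2, Lyve1 and Cbr2 UMIs per cell (horizontal axes), for genes that were higher in members (left) and genes that were lower or level (right). F13a1 goes from 79.5 to 409 CPM across the bins, while H2-Aa drops from 217 to 47.7 CPM between sums of 0 and 1 and stays low.

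The 51 members with a Lyve1 UMI were a minority with higher pooled levels of several genes. They held Vsig4 at 210 CPM against 22.9 CPM in the other 635 members, Ltc4s at 252 against 63.3 CPM, F13a1 at 632 against 231 CPM, Ccl8 at 4437 against 1978 CPM and the hemoglobin scavenger receptor Cd163 at 81.1 against 24.3 CPM. Median depths were 6829 and 6955 UMIs. They also held the lymphatic endothelial transcripts Ccl21a (2130 against 32.7 CPM), Mmrn1 (99.5 against 2.78 CPM) and Reln (75.6 against 1.91 CPM), and Lyve1 is itself a lymphatic endothelial gene. Those transcripts were concentrated, since 5 of the 51 cells had at least 2 UMIs of Prox1, Mmrn1, Flt4 and Reln in sum and held all 1156 Ccl21a UMIs of the 51. The Ccl21a ratio of the whole class (213 against 98.9 CPM) therefore rests on a few cells. Without cells holding at least 2 such UMIs, Vsig4 was at 253 CPM in the remaining 46 Lyve1 cells, 11 of which (23.9%) had a UMI. It was at 23.1 CPM in 632 cells without Lyve1, of which 5.22% had a UMI. Ltc4s, F13a1, Ccl8 and Cd163 were not recomputed in this way. In allogeneic replicates 1, 2 and 3, Vsig4 had a UMI in 0 of 2, 0 of 9 and 1 of 8 such Lyve1 cells. Myl9, a mural transcript, had a UMI in 9.33% of members and 8.81% of sum-0 cells.

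To see whether the same 3 transcripts marked the same differences elsewhere, the definition was applied to the 3 allografts, libraries that the rule for members did not use. There the class held 27, 46 and 63 cells, against 761, 1188 and 340 cells with a sum of 0. Across 10599 genes tested with edgeR's quasi-likelihood test (library as a block, Benjamini-Hochberg adjustment, threshold 0.05), 78 genes (0.736%) were higher and 69 (0.651%) lower, 1.39% in all, in cells with a sum of at least 2. Of the 11 genes above 2-fold in the isograft, 7 passed as higher (63.6% of those 11, 8.97% of the 78) and all 11 had a positive sign. Those 7 were Ccl21a, Ccl8, F13a1, Ltc4s, Mrc1, Nxpe5 and Stab1. Of the 12 genes lower in the isograft, 6 passed as lower and 10 had a negative sign. The reverse view was similar in sign: of the 78 higher genes, 70 had at least 20 CPM in the isograft and 62 of these lay above 0 there, and of the 69 lower genes, 46 did and 41 lay below 0.

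Receptors and resident markers rose in the allograft class. Mrc1 was at 128, 118 and 114 CPM in allogeneic replicates 1, 2 and 3 with a sum of at least 2 and at 28.4, 34.0 and 27.1 CPM with a sum of 0. All 3 libraries moved the same way and the classes did not overlap, with a log2 change of 2.04 ± 0.16 (SE, edgeR adjusted p = 9.56e-07). Stab1 was at 207, 224 and 141 CPM against 90.2, 83.9 and 47.6 CPM, a log2 change of 1.44 ± 0.13 (edgeR adjusted p = 7.81e-06). F13a1 was at 128, 87.5 and 53.2 CPM against 42.4, 49.97 and 16.5 CPM, a log2 change of 1.36 ± 0.19 (edgeR adjusted p = 0.00059), a call lost with every cell thinned to 3000 UMIs (1.04, edgeR adjusted p = 0.28). The first class was higher within each library for Stab1 and F13a1 too. Marco, a scavenger receptor for bacteria, rose by 2.13 on the log2 scale but was at 2.33 against 7.88 CPM in replicate 1. Its call was lost with DESeq2 (1.40, DESeq2 adjusted p = 0.788). Dab2 and Fcgrt rose by 1.12 and 0.91. Of the 26 resident marker genes, 20 were tested, 12 rose and none fell, with a median log2 change of 1.03 beside 0.00 over all genes tested. Maf rose by 0.71 and Selenop, a selenium carrier, by 1.22.

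Secreted factors followed, though with uneven sizes. Ccl8 was at 14022, 11595 and 8843 CPM in the class against 4325, 4607 and 6943 CPM with a sum of 0, a log2 change of 1.17 ± 0.15 (edgeR adjusted p = 0.000279). The smallest difference was in replicate 3. Pf4 was at 147, 53.8 and 908 CPM against 23.03, 16.0 and 111 CPM (log2 change 2.68 ± 0.19, edgeR adjusted p = 4.09e-07), and Ltc4s at 4.66, 28.6 and 114 CPM against 3.99, 4.92 and 26.6 CPM (2.10 ± 0.29). For Ltc4s the classes were nearly equal in replicate 1. Ccl2, Ccl7 and Ccl9 rose by 0.84, 1.22 and 0.90. The largest changes, in Ccl21a (0, 794 and 875 CPM against 1.23, 2.79 and 80.6), Nts and Prg4, were not shared by all libraries. Ccl21a and Nts had log2 changes of -0.95 and -1.62 when cells were chosen without Lyve1, and the 6 lymphatic endothelial markers summed to 137, 957 and 989 CPM in the class against 89.5, 83.0 and 160 CPM. Fibroblast markers summed to 280, 257 and 6235 CPM in the class against 547, 297 and 4558 CPM. With cells holding more than 2 UMIs of a fibroblast, endothelial or T and NK set removed, 200 genes passed against 147. Of the 20 named genes of this contrast, 16 kept their call, 1 lost it and the rest had no value there. The lymphatic endothelial markers were not in those sets, and their part was not tested.

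Of the 20 inflammatory mediators tested in the allografts, 5 were lower and 2 higher in the class, with a median log2 change of -0.37. Over all genes tested, 0.651% were lower and 0.736% higher. Il1b was at 242, 288 and 103 CPM with a sum of at least 2 and 608, 724 and 243 CPM with a sum of 0, a log2 change of -1.26 ± 0.11 (edgeR adjusted p = 3.07e-06). The ratio was nearly the same in all 3 libraries (log2 -1.33, -1.33 and -1.24) and close to the isograft value of -1.40. Clec7a, a receptor for fungal glucans, fell by 1.10, Ccr2 fell by 0.83, Nos2, which makes nitric oxide, fell by 0.79 and F10, a clotting factor, fell by 1.27. Among the class II list, H2-Aa, H2-Eb1 and Cd74 passed as lower of 12 tested (median -0.49). H2-Aa was at 2916, 2569 and 959 CPM against 3820, 3124 and 1953 CPM (log2 change -0.52 ± 0.11, edgeR adjusted p = 0.0159). Saa3 went the other way from the isograft and rose by 0.80. Vsir was at 112, 138 and 62.9 CPM against 120, 112 and 61.8 CPM (log2 change 0.13 ± 0.15, edgeR adjusted p = 0.826).

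**Figure D3:**
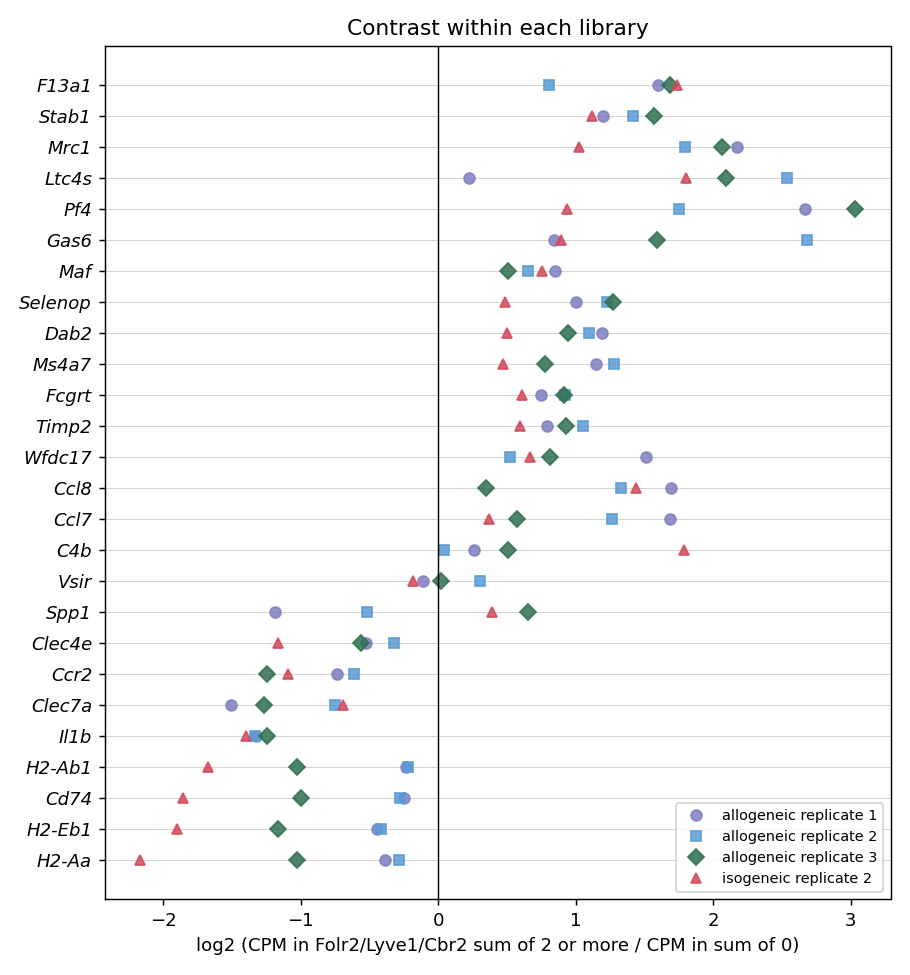
Log2 ratio of CPM in non-dividing macrophages with a sum of at least 2 over those with a sum of 0 (horizontal axis), within each library, for named genes (vertical axis). Mrc1, Stab1 and F13a1 lie right of 0 in all 4 libraries, Il1b and the class II genes lie left of it, and Vsir lies near 0.

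Of those 7 shared genes, 6 are no marker of another cell type, and their promoters are shown because they differed the same way in both kinds of graft. The windows are RefSeq sequences of GRCm38.p6 (mm10), 300 bases long, from 250 bases before a transcript start to 50 bases after it, each written 5′ to 3′ on the gene's strand. Capitals mark matches on either strand to TGCTGA, the half-site of MAF factors, or GAGGAAGT, a core bound by the macrophage factor PU.1, and the motifs do not overlap here.
Ccl8 (chr11:82114935-82115234, plus strand): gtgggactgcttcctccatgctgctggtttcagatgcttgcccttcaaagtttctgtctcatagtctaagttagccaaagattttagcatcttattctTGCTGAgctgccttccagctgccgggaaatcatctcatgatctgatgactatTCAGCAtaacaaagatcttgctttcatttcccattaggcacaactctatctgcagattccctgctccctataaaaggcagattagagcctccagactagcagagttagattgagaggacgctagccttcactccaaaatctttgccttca
Stab1 (chr14:31168592-31168891, minus strand): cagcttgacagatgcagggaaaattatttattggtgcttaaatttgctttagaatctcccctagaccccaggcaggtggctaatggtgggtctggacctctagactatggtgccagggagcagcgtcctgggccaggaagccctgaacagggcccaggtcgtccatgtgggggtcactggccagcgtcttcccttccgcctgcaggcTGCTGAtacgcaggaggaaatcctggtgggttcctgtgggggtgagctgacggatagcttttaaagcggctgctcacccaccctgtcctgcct
F13a1, inner start (chr13:37049164-37049463, minus strand): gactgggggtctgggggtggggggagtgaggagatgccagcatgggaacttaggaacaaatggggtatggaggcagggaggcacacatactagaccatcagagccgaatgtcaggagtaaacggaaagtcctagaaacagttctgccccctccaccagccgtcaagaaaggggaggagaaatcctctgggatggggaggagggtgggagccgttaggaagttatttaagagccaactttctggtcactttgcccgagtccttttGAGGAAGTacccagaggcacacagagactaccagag
Mrc1 (chr2:14229164-14229463, plus strand): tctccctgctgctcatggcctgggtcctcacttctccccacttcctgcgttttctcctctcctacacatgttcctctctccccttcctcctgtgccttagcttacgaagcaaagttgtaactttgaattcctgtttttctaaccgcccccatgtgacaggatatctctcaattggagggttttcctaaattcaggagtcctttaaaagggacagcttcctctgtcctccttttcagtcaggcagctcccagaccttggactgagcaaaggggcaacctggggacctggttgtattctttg
Ccl8 had 2 MAF half-sites, Stab1 had 1, and the inner of the 2 F13a1 starts had 1 PU.1 core. No letters of either motif were found in the windows of Mrc1, Ltc4s and Nxpe5 or of the outer F13a1 start. Of 32851 promoter windows, 19.5% held the half-site and 3.20% the core, so 2 of 6 genes with a half-site is a description only, and a match is not evidence of binding.

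Whether the contrast itself differed between grafts was tested with an interaction term over all 4 libraries. Of 14311 genes, 8 (0.0559%) had a higher and 15 (0.105%) a lower contrast in the isograft by edgeR's quasi-likelihood test. The class II difference was wider in the isograft: for H2-Aa the log2 ratios were -2.17 in the isograft and -0.39, -0.28 and -1.03 in the allografts (difference -1.44 ± 0.20, edgeR adjusted p = 3.59e-09). For Cd74 they were -1.86 against -0.25, -0.28 and -1.001 (difference -1.19, edgeR adjusted p = 3.59e-09), but the call was lost without allogeneic replicate 2 (edgeR adjusted p = 0.137). Saa3, an acute-phase protein, was lower in isograft members (-1.51) and higher in the allograft class (0.59, 0.19 and 1.47), a difference of -2.10 ± 0.22 (edgeR adjusted p = 5.51e-18). The rise of Pf4 was smaller in the isograft (0.94 against 2.67, 1.75 and 3.03), and C4b, a complement protein, was higher by 1.79 there against 0.26, 0.04 and 0.51. In this fit edgeR gave every gene the same residual spread (its prior degrees of freedom were infinite), which makes p-values too small for genes that vary between allografts. DESeq2 passed 2 genes, Saa3 and H2-Aa, each with an adjusted p of 0.0107. For Mrc1, Stab1, F13a1, Ltc4s, Ccl8, Il1b and Vsir the difference did not pass, which does not show that the contrasts were equal.

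**Figure D4:**
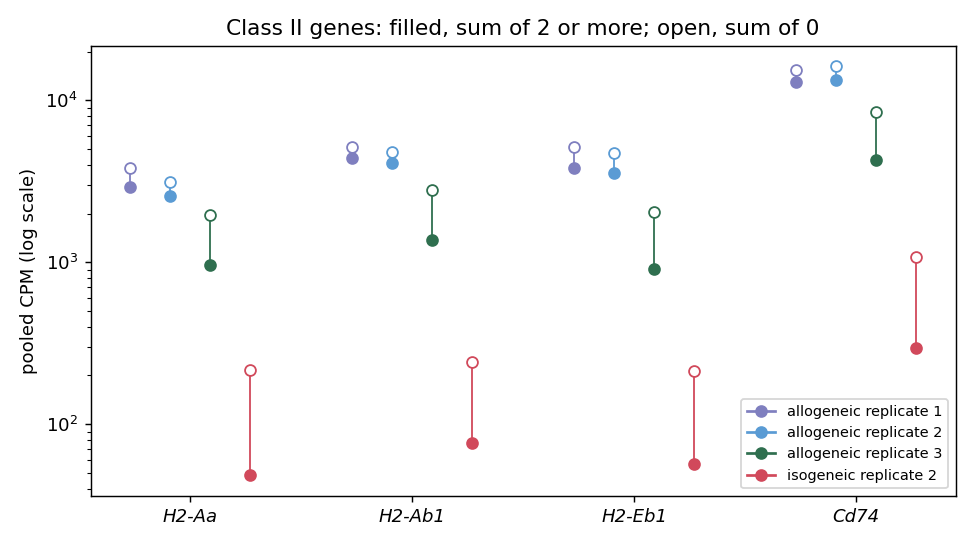
Pooled CPM (vertical axis, log scale) of 4 class II genes (horizontal axis) in macrophages with a sum of at least 2 (filled) and of 0 (open), 1 colour per library. The isograft has the lowest levels and the longest line between its points for each gene.

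Members of the isograft were last compared with cells of the same definition in the allografts, 1 library against 3, with the lone library assumed to vary like the others. The definition counts raw UMIs, and the allograft class was deeper (medians 14738, 11467.5 and 12595 UMIs against 6946.5 in members). Ccr2 had a UMI in 40.7%, 30.4% and 28.6% of the allograft class and in 11.8% of members. With the definition applied to counts thinned to 3000 UMIs, the share of non-dividing macrophages was 25.05% in the isograft. In the allografts it was 2.99% ± 3.67 (SD, n = 3). The comparison below was not run on classes set that way. Of 8046 genes, 67 (0.833%) were higher in the allografts and 3 (0.0373%) lower, 0.87% in all, by edgeR's quasi-likelihood test. Interferon-gamma targets led, with 16 of 24 tested genes higher, none lower and a median log2 change of 4.36 beside -0.01 over all genes. Cxcl9, a chemokine that draws activated T cells, was at 2539, 2357 and 2512 CPM in the allograft class and 3.18 CPM in isograft members (log2 change 9.55 ± 0.47, edgeR adjusted p = 0.00567). The guanylate-binding protein gene Gbp4 was at 210, 185 and 186 CPM against 0.79 CPM (log2 change 7.79 ± 0.50), and Nos2 at 147, 84.1 and 48.4 CPM against 0.64 CPM. Ubd, a ubiquitin-like modifier, and Ly6i had no UMI in the 686 members, and their allograft means of 102 ± 8.50 and 77.3 ± 42.2 CPM (SD, n = 3) were at least 213-fold and 162-fold higher than the level that 3 counts over the members' summed UMIs would give. The allograft libraries were far above the isograft for each of these genes and did not overlap it.

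Of the class I presentation genes, 4 of 16 rose in the allografts and all 16 lay above 0, and of the chemokine genes 4 of 19 rose, with 11 above 0, 8 below and a median of 0.45. Cd274, the checkpoint ligand PD-L1, was at 608, 564 and 386 CPM in the allograft class and 17.2 CPM in isograft members (log2 change 4.88 ± 0.47, edgeR adjusted p = 0.0216). Psmb8, an immunoproteasome subunit, was at 1582, 1612 and 1338 CPM against 239 CPM. Ccl8 was at 14022, 11595 and 8843 CPM against 2190 CPM (log2 change 2.36 ± 0.33, edgeR adjusted p = 0.0475), although it was one of the genes that rose with the choosing transcripts in both kinds of graft. All 10 tested class II genes were above 0 with a median of 4.60, and 1 passed, the loading factor H2-DMa (log2 change 4.15). H2-Aa itself was at 2916, 2569 and 959 CPM against 48.4 CPM (5.42 ± 0.80, edgeR adjusted p = 0.0521). Of the genes of monocyte-derived macrophages, 5 of 20 rose, among them Plac8 at 538, 528 and 664 CPM against 47.5 CPM. Klrk1, the NKG2D receptor of T and NK cells, also rose (53.6, 55.5 and 48.4 CPM against 0.48 CPM), beside T and NK marker sums of 133, 205 and 210 CPM in the allograft class and 6.19 CPM in members.

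Most resident marker genes were lower in the allograft class, without passing. Of 22 tested, 18 lay below 0 and 4 above, with a median of -0.89 and a largest value of 4.13. The sum-0 macrophages showed a similar pattern, with 17 of 21 tested resident markers below 0, 4 above and a median of -0.78. Timd4 was found in a larger share of the allograft class, in 4 of 27, 6 of 46 and 13 of 63 cells of replicates 1, 2 and 3. In isograft members it was found in 9 of 686. The part of depth in these Timd4 shares was not tested. Mrc1 was at 342 CPM in the isograft against 128, 118 and 114 CPM (log2 change -1.54 ± 0.27, edgeR adjusted p = 0.0822), and F13a1 at 265 against 128, 87.5 and 53.2 CPM (-1.63 ± 0.43, edgeR adjusted p = 0.244). The isograft was above every allograft for both. The 3 genes that passed as lower were Npl (83.5 CPM against 6.99, 13.5 and 12.1 CPM, log2 change -2.91 ± 0.39), the elastase Mmp12 (65.8 against 11.6, 8.41 and 9.67 CPM, -2.76 ± 0.38) and the transcription factor Mef2c (162 against 44.3, 37.0 and 38.7 CPM, -2.05 ± 0.29). Spp1 was at 4934 CPM against 97.8, 187 and 818 CPM, with a wide spread (log2 change -3.72 ± 0.999, edgeR adjusted p = 0.251). Vsir did not pass (log2 change 0.39 ± 0.45, edgeR adjusted p = 0.823). These calls changed when allogeneic replicate 2, which held 46 cells of the class, was left out. Without it edgeR called 0 genes, with 423 at an unadjusted p under 0.05, while DESeq2 without it called 112 but none of Npl, Mmp12 and Mef2c; with all libraries DESeq2 called 268.

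**Figure D5:**
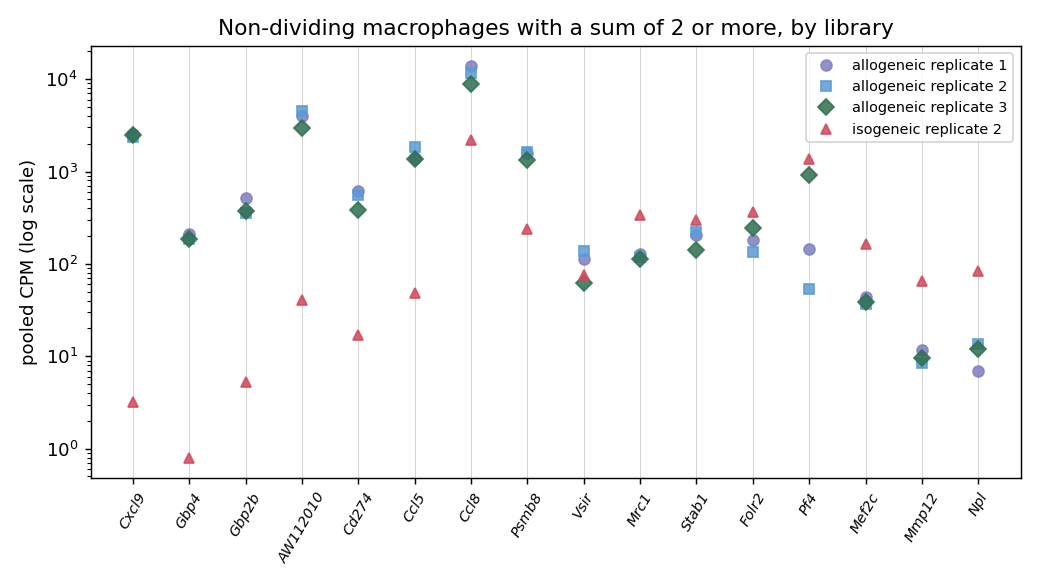
Pooled CPM (vertical axis, log scale) of named genes (horizontal axis) in non-dividing macrophages with a sum of at least 2, 1 point per library. Cxcl9 and Gbp4 lie far higher in the 3 allografts than in the isograft, while Mrc1, Mef2c, Mmp12 and Npl lie highest in the isograft.

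The same comparison in sum-0 macrophages, which uses the same libraries, gave 159 genes higher (1.11% of 14337) and 15 lower (0.105%) in the allografts, 1.21% in all. Cxcl9 changed by 9.39 there, and 18 of 25 interferon-gamma targets rose with a median of 4.45. Ccl8 had a log2 change of 2.81 in that class, and Mrc1 fell by 2.38 (edgeR adjusted p = 0.0358).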

How the data were processed

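The deposited files hold counts, whole numbers of UMIs per gene and cell barcode for 34097 genes, made by the authors with Cell Ranger against mm10. The submitters' processing notes name version 3.1.0 and the matrix headers 6.1.0, and none of the sources says whether counting used strand. Libraries held 51054446 to 100038951 UMIs over 6160 to 11473 barcodes. Counts were summed per library and class. CPM are scaled to 1000000 UMIs of the class. Intervals are exact (Poisson or Clopper-Pearson, 95%) and cover counting error only. Tests used edgeR 4.0.16 (R 4.3.3), TMM scaling and its default filter on low counts, with the genes of the cell rules removed. DESeq2 1.42.0 was an alternative. SE is approximate, taken from the log2 change and its F statistic, and residual degrees of freedom were 2 in each fit. The sum-0 class had the same division limit as the members. Doublets were scored with Scrublet (scanpy 1.11.5, Python 3.11.15) and kept, with removal of the highest scores (0.8% per 1000 barcodes) as an alternative. The code was tested on simulated data.

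Named genes were the 15 largest isograft ratios each way at 100 CPM, leading genes of 30 lists, the 10 largest passing changes each way at 50 CPM, the 10 smallest interaction p-values, the markers and Vsir. Genes outside this rule (Vsig4, Cd163, H2-Ea, Ccl9, Psmb8, Cd274, Timd4 and others) were chosen after their values were seen. The members and lists were chosen with earlier results of these data known. Of the gene identifiers, 32403 were found in GENCODE M21.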

Additional observations from a re-analysis of the deposited data

Results flagged for a closer look

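For 10 genes, the difference between cells with a sum of at least 2 and cells with a sum of 0 was not the same in the isograft and the allografts by the interaction test (edgeR), with the limits on its p-values given above. Values are log2 differences of the contrast, isograft minus allografts, and all of these comparisons use the same 4 libraries.

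Class II genes had a wider difference in the isograft. The value was -1.44 for H2-Aa, -1.19 for Cd74 and -1.07 for H2-Eb1, the last 2 losing their call without allogeneic replicate 2. Saa3 had -2.10, with opposite signs in the 2 kinds of graft, and Pf4 had -1.54, being higher in the first class in all 4 libraries. C4b had 1.67, with 54.2 against 15.7 CPM in the isograft and 104 ± 6.85 against 87.0 ± 15.2 CPM (SD, n = 3) in the allografts.

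The other 4 genes varied between the allografts. Apoe had -1.01 and log2 ratios of 0.04 in the isograft and 2.67, 0.74 and 0.29 in allogeneic replicates 1, 2 and 3. It lost its call without replicate 1 (edgeR adjusted p = 0.183). Ccl21a had -3.87, and most of its UMIs in the class lay in a few Lyve1 cells: 2 of 46 cells held 470 of 472 UMIs in allogeneic replicate 2. In replicate 3, Lyve1 cells held 642 UMIs, 613 of them in 2 cells, and cells without Lyve1 held 82. In the isograft, Lyve1 cells held 1156 UMIs and cells without Lyve1 held 188. Nts had -3.36, with 2.33, 151 and 164 CPM in the allograft class and 4.77 CPM in isograft members. Prg4, a lubricating matrix protein, had -3.35, and in the allografts it was found almost only in replicate 3 (589 CPM with a sum of at least 2, 59.0 CPM with a sum of 0).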

How the results depend on the processing

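Counts of genes past the threshold moved with the settings, and so did the sizes of the named genes. In the isograft, 23 genes passed 2-fold, against 43 with a sum of at least 4 and 49 with a minimum of 20 CPM. Of the 30 named genes, 22 moved beyond their counting error with a sum of at least 4. Choosing without Folr2 moved 20, removing cells with markers of other types moved 21, and choosing without Lyve1 moved 2. Only Arg1 (-0.75) and Ctsl (-0.22) changed sign under any alternative run, both when cells were chosen without Folr2. That choice also let cells with Folr2 into the comparison class. In the allografts, 147 genes passed, against 87 with DESeq2, 257 without a filter on low counts and 87 without the highest doublet scores. There were 58 when thinned to 3000 UMIs, 200 without cells holding markers of other types and 231 when cells were chosen without Lyve1. Leaving out each replicate gave 111 to 245, the high values without replicate 1 (245) and without replicate 3 (244). For the interaction, 23 genes passed, against 2 with DESeq2 and 10 without the highest doublet scores, and leaving out each replicate gave 11 to 51. For allografts against the isograft, 70 genes passed, against 268 with DESeq2, 354 without a filter, 473 without cells holding markers of other types, 106 when chosen without Lyve1, and 112 with DESeq2 without allogeneic replicate 2. Leaving out each replicate gave 0 to 1890, with 35 without replicate 1, 0 without replicate 2 and 1890 without replicate 3. All 13 named genes of that comparison lost their call without replicate 2 with edgeR, while 10 of the 13 kept it with DESeq2 without that replicate. The share difference of 29.3 points became 15.8 with a sum of at least 4 and 22.1 when thinned. The cause of these changes was not tested.

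Across libraries, signs turned for 3 named genes. In the allografts, Ccl21a had -0.95 and Nts had -1.62 when cells were chosen without Lyve1, and Prg4 had -0.29 with DESeq2. In the interaction, Ccl21a had 0.34 without the highest doublet scores and 1.22 without Lyve1, Nts had 1.601 without Lyve1, and Prg4 ran from -4.06 without allogeneic replicate 2 to 7.01 without replicate 3 and had 6.07 without cells holding other markers. A sum of at least 4 was not run across libraries, because it left under 20 cells in a class. Removing cells with other markers, choosing without Lyve1 outside the isograft and DESeq2 without replicate 2 were chosen after seeing the data. No paired analysis was possible because the groups share only 1 replicate number.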
